A study of Mus musculus with 15 samples.

Results

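The proteasome is the barrel-shaped protease that degrades ubiquitin-tagged proteins in the cytosol and nucleus, and 45 genes for its constitutive subunits, assembly factors and regulators were followed in mouse thymic fibroblasts after irradiation. They were taken from a table of 12763 genes by name, as every gene whose symbol starts with Psma to Psmg and a number, 48 in all, without the 3 immunoproteasome genes Psmb8, Psmb9 and Psmb10. Of the 45 genes, 14 encode the core particle, 17 the cap that sits on it, 7 assembly chaperones, 5 activators and 1 an inhibitor. The remaining gene, Psmc3ip, carries a subunit-like symbol but encodes a meiotic recombination factor, and it was counted among the 45 and left out of every class.

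Fibroblasts were sorted from the thymus of male wild-type mice that were left untreated, or that had received 425 rad, a sublethal dose, 1 day or 3 days before. There were 3 groups of 5 libraries. The assay was MARS-seq, a bulk method that captures the 3' ends of polyadenylated RNA and counts molecules by unique molecular identifiers (UMIs). The study compared the irradiated groups with the untreated group, and its title concerns regrowth of the thymus. The labels used here give neither strain nor age, nor whether replicates came from separate animals, so the p-values below measure the spread between these samples.

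In the core particle, alpha subunits form the outer rings that gate the entrance and beta subunits the inner rings, where Psmb5, Psmb6 and Psmb7 carry the catalytic sites. The cap has a base, with a ring of ATPases (Psmc genes) that unfold substrates, and a lid that removes ubiquitin. Interferon leads many cells to replace the 3 catalytic subunits with Psmb8, Psmb9 and Psmb10 and to make the PA28 activator from Psme1 and Psme2, a ring that opens the core in place of the cap and is known for its part in making peptides for MHC class I.

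Untreated libraries held between 1102176 and 2661621 UMIs, day 1 libraries between 740169 and 2638344, and day 3 libraries between 1967148 and 3750214. The 45 genes together took 3876 to 16458 UMIs per library. Levels are given as CPM, UMIs per 1000000 of the TMM-scaled library total, and log2 changes ± SE come from 1 edgeR fit of all 15 libraries over the 10207 genes that passed a filter on low counts. A gene was called at an adjusted p under 0.05. The sorted population was checked against marker genes. Marker sums, here and in the next paragraph, are UMIs per 1000000 of the plain library total, without TMM scaling. For 7 fibroblast markers the sum was 41356 to 50349 in untreated libraries, 8435 to 22395 at day 1 and 32957 to 39564 at day 3. At day 1, 5 of the 7 were lower and 1, Pdgfrb, higher. Pdgfra, whose protein the sort required, averaged 310.2 TMM-scaled CPM untreated, 111 at day 1 and 193 at day 3. Epcam, which the labels list as a positive sort marker, had 10 or 11 UMIs in the 5 libraries of each group.

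Markers of some other cell types moved with the day 1 group as well. The 12 macrophage and dendritic cell markers summed to 243 to 841 untreated, 976 to 1567 at day 1 and 120.0 to 235 at day 3. Of the 10 tested, 8 were higher at day 1. The 5 mesothelial markers summed to 109 to 372 untreated, 343 to 2161 at day 1 and 262 to 1231 at day 3. All 5 were called higher at day 1 and 2 at day 3, and none was called lower at day 3 than at day 1. Of 7 thymic epithelial markers listed, 4 were in the table, with sums of at most 37.9 untreated, 54.8 to 526 at day 1 and 54.9 to 274 at day 3. The 3 tested, the keratin genes Krt8, Krt14 and Krt18, were called higher than untreated at both times, and Epcam was under the filter. T cell markers were at 3.63 to 40.2 untreated and 3.03 to 8.35 at day 1, B cell markers at most 8.35 in either group, and none of them passed the filter. The 6 endothelial markers summed to 49.9 to 99.2 untreated and 32.4 to 92.3 at day 1, with none higher and 1 of 2 tested lower. The 6 pericyte and smooth muscle markers summed to 217 to 408 and 271 to 470.2, with none of 5 called. The part of these changes in the proteasome results was not tested, and in sorted bulk samples a shift in cell types and a shift in RNA per cell cannot be told apart.

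At day 1 the proteasome genes were mostly higher than in untreated fibroblasts, and by day 3 they were not. Of the 44 genes tested, 26 (59.1%) rose at day 1, 2 fell and 16 were not called, where 23.1% of all 10207 genes were called higher and 23.1% lower. Their median log2 change was 0.49, beside -0.02 over all genes. The 5 day 1 values lay above all 5 untreated values for 15 of the 44, beside 13.4% of all genes, and below them for 1 (Psmg2), beside 14.2%. As a share of all UMIs in a library, the 45 genes took 0.469% ± 0.0147 (SD, n = 5) untreated, 0.619% ± 0.0632 at day 1 and 0.432% ± 0.0230 at day 3, and the day 1 range of 0.524% to 0.680% did not overlap the untreated range of 0.452% to 0.491%.

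The day 1 count depended on how libraries were scaled. With plain library totals in place of TMM, 13 genes were called higher and 3 lower, because the median change of all genes moved from -0.02 to -0.29, and the median of the 44 genes was then 0.22. Over all genes 1498 (14.7%) were then called higher and 3652 lower. A change of scaling shifts all genes by nearly the same amount, so in both the median of the 44 necessarily stood 0.51 above that of all genes. The rises below are therefore relative to the bulk of genes in the same libraries.

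**Figure D1:**
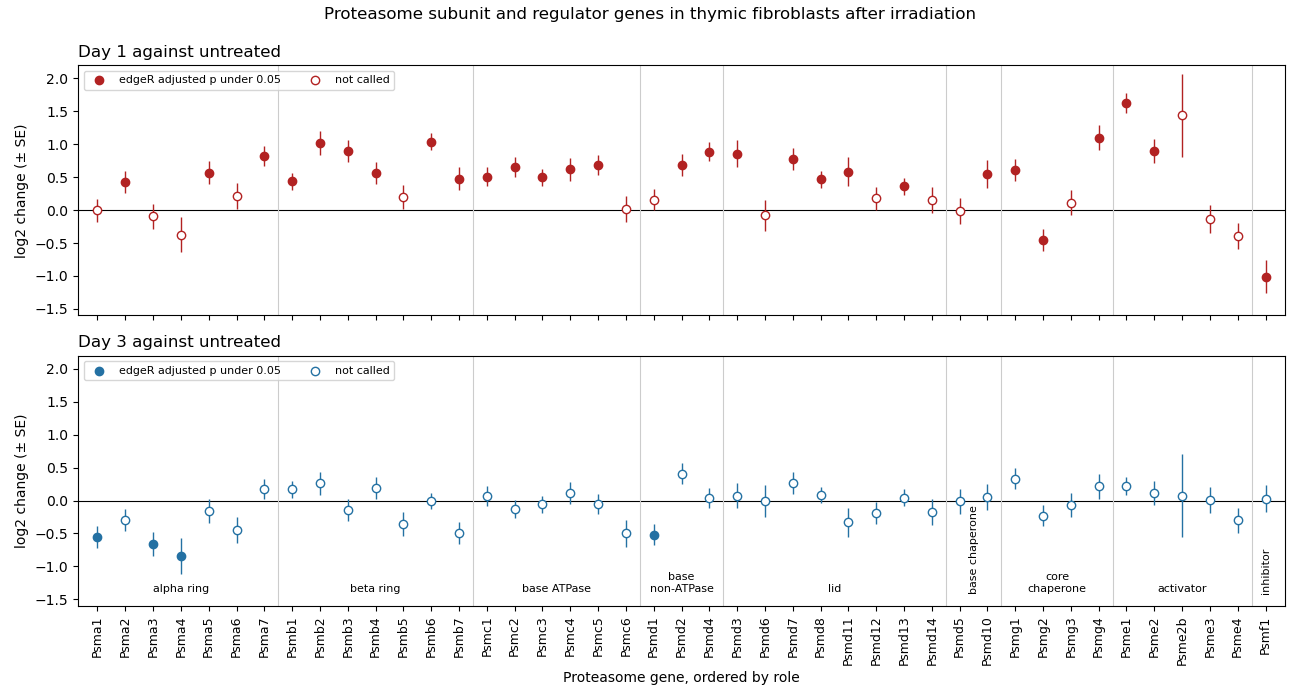
Log2 change ± SE of 43 tested proteasome genes (Psmc3ip left out), ordered by role, for day 1 against untreated (top) and day 3 against untreated (bottom). Filled points passed an edgeR adjusted p of 0.05: 26 lie above 0 and 2 below at day 1, and none above and 4 below at day 3.

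Counts were set side by side by class, and the difference between classes was not tested. Core and cap were alike in count, with 9 of 14 core genes and 12 of 17 cap genes higher and none lower, and their medians were 0.46 and 0.51. Within the core, 6 of 7 beta genes rose against 3 of 7 alpha genes. Within the cap, 5 of 6 ATPases, 2 of 3 other base genes and 5 of 8 lid genes rose. Among assembly chaperones 3 of 6 tested rose and 1 fell, among activators 2 of 5 rose, and the inhibitor fell. With plain totals 4 core, 6 cap, 1 chaperone and 2 activator genes were called higher, beside 14.7% of all genes.

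For 4 of the 26 genes that rose at day 1, the promoter window held the letters GAAANNGAAA on either strand, a minimal form of the interferon-stimulated response element (ISRE). The rest of the 26 had no match or, for Psmb1, Psmb2, Psmb7, Psmc3, Psmd3 and Psmd7, no window. The 4 windows are shown to let the matches be seen. The windows are 300 bases from RefSeq on GRCm38.p6, 250 before to 50 after the annotated start, printed 5′ to 3′ on the gene's strand with the ISRE letters in capitals. The Psme1 window is chr14:55578244-55578543 (+) with the match 9 bases after the start, Psmg4 is chr13:34162714-34163013 (+) with the match 15 bases after, Psmd4 is chr3:95042565-95042864 (-) with the match 80 bases before, and Psmb3 is chr11:97703184-97703483 (+) with the match 163 bases before. A window of Psme2, chr14:55591052-55591351 (-), which rose too and had no match, is shown for contrast.
Psme1: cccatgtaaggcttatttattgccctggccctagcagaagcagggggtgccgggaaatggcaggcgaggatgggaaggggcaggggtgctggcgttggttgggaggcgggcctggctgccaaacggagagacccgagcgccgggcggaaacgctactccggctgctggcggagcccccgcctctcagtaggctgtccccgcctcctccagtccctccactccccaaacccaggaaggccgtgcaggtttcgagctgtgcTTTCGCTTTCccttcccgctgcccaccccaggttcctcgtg
Psmg4: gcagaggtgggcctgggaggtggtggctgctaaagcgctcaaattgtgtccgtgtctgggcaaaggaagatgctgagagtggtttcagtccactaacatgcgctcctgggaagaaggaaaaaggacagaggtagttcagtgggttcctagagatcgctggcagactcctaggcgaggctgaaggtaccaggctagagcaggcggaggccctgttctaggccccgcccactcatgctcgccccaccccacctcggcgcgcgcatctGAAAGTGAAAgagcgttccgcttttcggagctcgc
Psmd4: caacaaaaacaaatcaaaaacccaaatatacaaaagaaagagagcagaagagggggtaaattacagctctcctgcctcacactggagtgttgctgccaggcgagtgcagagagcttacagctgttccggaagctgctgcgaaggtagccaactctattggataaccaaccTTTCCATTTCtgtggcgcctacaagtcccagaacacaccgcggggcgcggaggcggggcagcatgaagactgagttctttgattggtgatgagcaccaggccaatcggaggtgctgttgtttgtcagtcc
Psmb3: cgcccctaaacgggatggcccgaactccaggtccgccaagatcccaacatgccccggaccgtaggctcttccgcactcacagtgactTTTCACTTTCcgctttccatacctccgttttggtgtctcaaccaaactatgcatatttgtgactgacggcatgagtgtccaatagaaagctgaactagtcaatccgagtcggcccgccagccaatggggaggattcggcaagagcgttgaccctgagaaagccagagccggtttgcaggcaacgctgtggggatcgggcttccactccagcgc
Psme2: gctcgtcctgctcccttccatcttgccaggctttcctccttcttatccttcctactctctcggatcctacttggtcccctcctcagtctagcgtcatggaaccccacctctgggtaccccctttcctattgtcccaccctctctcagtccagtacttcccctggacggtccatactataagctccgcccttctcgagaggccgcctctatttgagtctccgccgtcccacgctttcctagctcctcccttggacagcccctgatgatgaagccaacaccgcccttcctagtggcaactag

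Windows were found for 38 of the 45 genes, and the ISRE letters stood in those of 5 (13.2%), the fifth being Psmd9, beside 3.99% of 27025 genes with such windows. None of the 3 immunoproteasome windows held them, and Psmd9 was not among the genes higher at day 1. The other letters searched, on both strands, were the GAS element TTCNNNGAA in 2 (5.26%, beside 9.55% of genes), the antioxidant response element core TGACNNNGC in 6 (15.8%, beside 14%) and the CCAAT box in 13 (34.2%, beside 41.1%). The TGACNNNGC letters stood in the windows of Psmb5, Psmb6, Psmc6, Psmd12, Psmd9 and Psme4, of which Psmb6 alone was called higher at day 1. No ISRE match overlapped a match of another motif in the 4 windows printed with one. A match of letters is a description of the window and shows no binding.

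The largest rise of the set was in an activator. Psme1 (chr14:55578123-55581529, + strand, GRCm38), the alpha subunit of PA28, measured 348, 300.2, 321, 238 and 335 CPM in untreated libraries, 814, 1122, 929.9, 1051 and 848 at day 1, and 374, 297, 348, 382 and 391 at day 3. All 5 day 1 libraries lay above every other library, and the untreated and day 3 ranges overlapped. The log2 change at day 1 was 1.63 ± 0.15, a 3.10-fold rise, with an edgeR adjusted p of 1.4e-08. Exons of Psme1 overlap Emc9 on the other strand, and whether the counting used strand is not given in the sources used here, so some reads could belong to that gene.

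Psme2 (chr14:55587441-55591113, - strand), the beta subunit of PA28 and a near neighbour of Psme1, measured 202, 150.3, 137, 188 and 112 CPM untreated, 192, 313, 247, 323 and 394 at day 1, and 194, 165, 158, 163 and 171 at day 3. Replicate 1 at day 1 fell within the untreated range, and the other 4 day 1 libraries lay above it. The rise was 0.90 ± 0.18 on the log2 scale, 1.87-fold, with an edgeR adjusted p of 3.4e-04. A near-identical copy, Psme2b (chr11:48945354-48946190, - strand), shares 99.4% of 794 aligned transcript bases with Psme2, so reads of the pair can be split between them and both levels are uncertain.

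Psme2b measured 21.3 to 26.2 CPM in 4 day 1 libraries and 162 in replicate 1, beside 5.96 to 27.7 untreated. Its log2 change of 1.44 ± 0.63 was not called (edgeR adjusted p = 0.0773), and without that library it was 0.59 (adjusted p = 0.217). DESeq2 and a fit of the 2 groups alone called it, with log2 changes of 1.71 and 1.47. Summed over the pair, the level was 118 to 217 CPM untreated, 271 to 417 at day 1 and 172 to 209.8 at day 3, so that replicate 1, at 354, lay among the other day 1 libraries and no day 1 library overlapped the rest. The pair was summed, and Psme2b and Psmd6 were singled out, after their values had been seen.

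The other activators were not called. Psme3, the nuclear PA28 gamma, averaged 31.2 ± 9.02 CPM untreated and 27.7 ± 8.61 at day 1 (SD, n = 5), a log2 change of -0.13 ± 0.21 with an edgeR adjusted p of 0.632. Psme4, the single-chain activator PA200, averaged 28.7 ± 6.88 and 21.5 ± 5.97 CPM, a change of -0.39 ± 0.20 with an edgeR adjusted p of 0.119. With plain library totals Psme4 was called lower, at -0.65 (adjusted p = 0.0116).

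Psmf1 (chr2:151715812-151744186, - strand) encodes PI31, described as a proteasome inhibitor in test-tube assays, and it had the largest fall among the 44 genes tested. It measured 15.3, 13.3, 12.6, 11.1 and 8.94 CPM untreated, 3.15, 6.54, 9.28, 4.45 and 3.94 at day 1, and 11.5, 13.5, 13.6, 11.4 and 11.7 at day 3. These levels rest on 18 to 35 UMIs per untreated library and 2 to 23 at day 1, and replicate 3 at day 1 overlapped the lowest untreated library. The fall at day 1 was -1.01 ± 0.25 on the log2 scale, a ratio of 0.498, with an edgeR adjusted p of 0.00247.

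**Figure D2:**
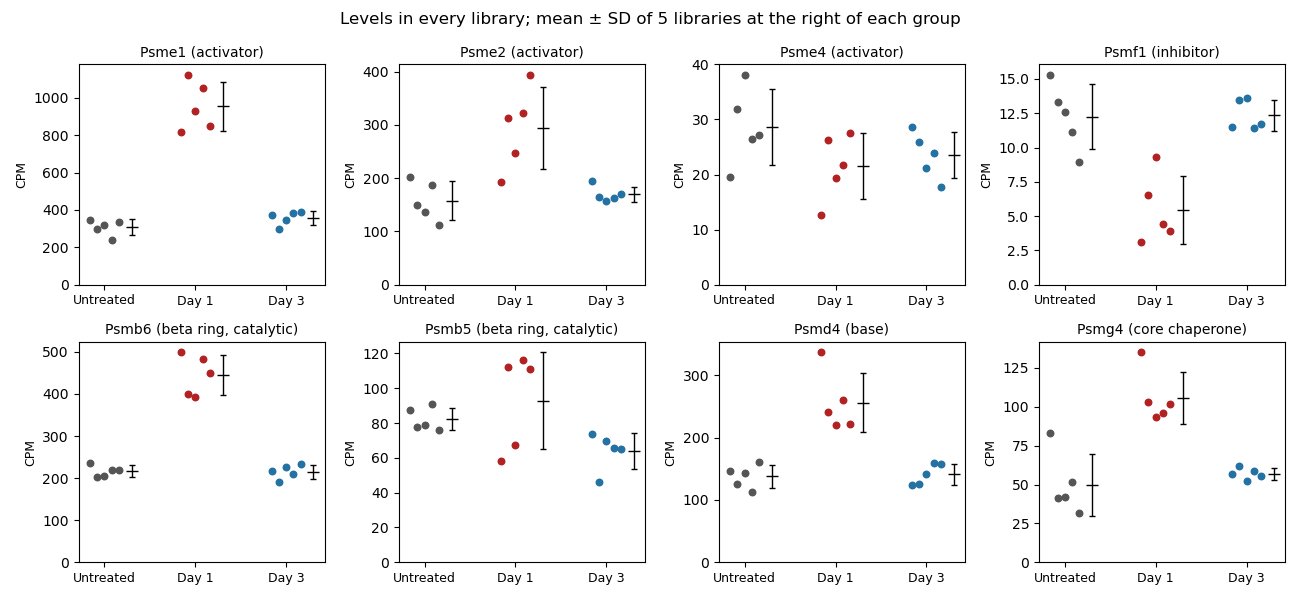
CPM of 8 genes in every library, with the mean ± SD of 5 libraries beside each group. Psme1, Psmb6, Psmd4 and Psmg4 at day 1 lie above all untreated libraries, Psme2, Psme4, Psmf1 and Psmb5 overlap them, and Psmf1 at day 1 averages 5.47 CPM against 12.3 untreated.

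The catalytic beta subunits differed from each other. Psmb6 (chr11:70525367-70527858, + strand), with the caspase-like site, measured 237, 202, 204, 219 and 220.0 CPM untreated, 499, 401, 392, 482 and 451 at day 1, and 217, 191, 227, 209 and 234 at day 3. Every day 1 library stood above every other library. The change at day 1 was 1.04 ± 0.13, 2.06-fold, with an edgeR adjusted p of 9.6e-07.

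Psmb5 (chr14:54614119-54618022, - strand), with the chymotrypsin-like site, measured 87.6, 78.0, 78.8, 91.0 and 76.2 CPM untreated and 58.3, 112, 67.4, 116 and 111 at day 1. Replicates 1 and 3 at day 1 lay below all untreated libraries and the other 3 above all of them, and the log2 change of 0.20 ± 0.18 was not called (edgeR adjusted p = 0.387). Psmb7, with the trypsin-like site, went from 60.4 to 109.8 CPM untreated to 86.4 to 149.6 at day 1. Its change of 0.48 ± 0.17 (edgeR adjusted p = 0.0286) lost its call in 8 of 22 alternatives, among them plain totals and a fit of the 2 groups alone, and its exons overlap Nek6 on the other strand.

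The other 4 beta genes rose. Psmb2, a structural beta subunit, averaged 77.2 ± 18.6 CPM untreated and 154 ± 38.5 at day 1, a change of 1.02 ± 0.18 (edgeR adjusted p = 1.0e-04). Psmb3, also structural and named here for its promoter, averaged 122 ± 21.4 and 229 ± 55.5 CPM, a change of 0.90 ± 0.17 (edgeR adjusted p = 1.4e-04). For both, the day 1 libraries lay above all untreated ones. Psmb1 and Psmb4 had changes of 0.44 and 0.56.

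In the alpha rings, Psma7 averaged 198 ± 25.1 CPM untreated and 346 ± 63.4 at day 1, a change of 0.82 ± 0.15 (edgeR adjusted p = 1.2e-04) with no overlap. Psma5 went from 77.8 ± 12.1 to 115 ± 35.4 CPM with overlap, a change of 0.57 ± 0.18 (edgeR adjusted p = 0.0145) that was lost with plain totals. Psma2, the remaining called alpha gene, had a change of 0.43. Psma1, Psma3, Psma4 and Psma6 ranged from -0.37 to 0.22 and were not called.

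The ring totals sum the same counts on the CPM scale. Summed CPM of the 7 alpha genes was 608 ± 29.6 untreated and 815 ± 180.5 at day 1 (SD, n = 5), with replicate 1 at day 1, at 546, under every untreated library. Summed CPM of the 7 beta genes was 1349.5 ± 148 and 2124 ± 253, with the day 1 range of 1852 to 2461 above the untreated range of 1240.0 to 1600.0. The ratios of the group means were 1.34 for alpha and 1.57 for beta.

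Among the ATPases of the base, Psmc5 averaged 107 ± 6.03 CPM untreated and 174 ± 30.1 at day 1, a change of 0.69 ± 0.15 (edgeR adjusted p = 8.9e-04) without overlap. Psmc2 averaged 124 ± 10.4 and 195 ± 40.4 CPM, a change of 0.66 ± 0.15 (edgeR adjusted p = 8.2e-04) with replicate 1 at day 1, at 129, inside the untreated range. Psmc1, Psmc3 and Psmc4 had changes of 0.51, 0.50 and 0.62. The uncalled ATPase gene, Psmc6, had 0.02. Exons of Psmc3 overlap Slc39a13 on the other strand.

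Psmd4 (chr3:95032694-95042614, - strand), a ubiquitin receptor of the base, measured 147, 125, 143, 113 and 160.5 CPM untreated, 337, 241, 221, 260.3 and 222 at day 1, and 124, 125, 141, 159 and 157 at day 3. The day 1 libraries lay above all others, with replicate 1 the highest. The change was 0.89 ± 0.15, 1.85-fold, with an edgeR adjusted p of 5.2e-05. Psmd2, a scaffold of the base that binds ubiquitin-like domains, averaged 53.5 ± 10.6 and 88.9 ± 19.7 CPM, a change of 0.69 ± 0.17 (edgeR adjusted p = 0.00176). Psmd1, its large partner in the base, had a log2 change of 0.16 and was not called.

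In the lid, Psmd7, the partner of the deubiquitinase Psmd14, averaged 75.1 ± 18.8 CPM untreated and 129.5 ± 25.3 at day 1, a change of 0.78 ± 0.17 (edgeR adjusted p = 8.3e-04) without overlap. Psmd3, a structural lid subunit, measured 92.8 to 106 CPM untreated, 130.0 to 159 in 4 day 1 libraries and 317 in replicate 1. Its change was 0.86 ± 0.20 (edgeR adjusted p = 0.00113), and 0.61 without that library (adjusted p = 6.8e-04). Psmd8, Psmd11 and Psmd13 had called changes of 0.47, 0.58 and 0.36, and Psmd12 and Psmd14 uncalled ones of 0.18 and 0.15. Exons of Psmd13 overlap Sirt3 on the other strand.

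Psmd6, another lid subunit, went the other way in the same library. It measured 62.5 to 77.4 CPM untreated, 60.6 to 83.1 in 4 day 1 libraries and 12.6 in replicate 1, from 8 UMIs. The log2 change was -0.08 ± 0.24 over all libraries and 0.13 without that library, and neither was called (edgeR adjusted p = 0.815 and 0.43).

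**Figure D3:**
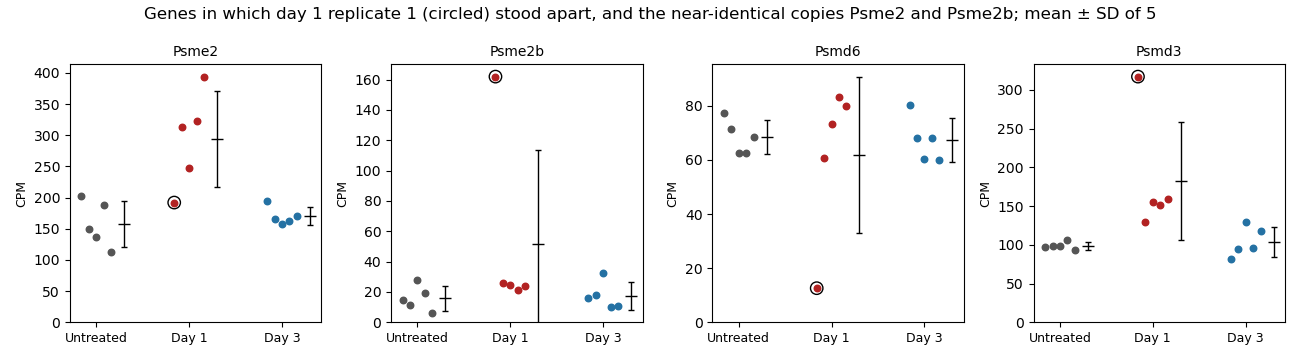
CPM of Psme2, its copy Psme2b, Psmd6 and Psmd3 in every library, with the mean ± SD of 5 libraries (a bar that would pass below 0 is cut there) and replicate 1 of day 1 circled. That library is the lowest of its group for Psme2 at 192 and Psmd6 at 12.6, and the highest for Psme2b at 162 and Psmd3 at 317.

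Replicate 1 at day 1 had the fewest UMIs of all libraries, 740169, and it was the lowest of its group for 22 of the 44 genes and the highest for 10. Without it 28 genes were called higher at day 1 and 1 lower. Summed core CPM in that library was 2398, beside 2615 to 3404 in the other day 1 libraries and at most 2195 in untreated ones. The part of its depth in these values was not tested.

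The assembly chaperones split in direction. Psmg4 (chr13:34162964-34178173, + strand), which helps build the alpha ring, measured 83.4, 41.6, 41.7, 51.4 and 31.5 CPM untreated, 135, 103, 93.2, 96.0 and 102 at day 1, and 56.5, 62.1, 52.0, 58.8 and 55.2 at day 3. Day 1 lay above untreated in all libraries, although untreated replicate 1, at 83.4, came near the lowest of them, at 93.2. The change was 1.10 ± 0.19, 2.15-fold, with an edgeR adjusted p of 8.2e-05. Its usual partner Psmg3 had a log2 change of 0.11 and was not called.

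Psmg1 and Psmg2 encode the partners of the other alpha ring chaperone, and they were called in opposite directions. Psmg1 averaged 24.4 ± 6.08 CPM untreated and 36.6 ± 2.06 at day 1, a change of 0.61 ± 0.16 (edgeR adjusted p = 0.00451) that plain totals brought to 0.34 (adjusted p = 0.0772). Psmg2 averaged 37.2 ± 8.06 and 26.4 ± 2.53 CPM, a change of -0.45 ± 0.17 (edgeR adjusted p = 0.0369). The Psmg2 call was lost in 8 of 22 alternatives, 7 of which left out 1 library (untreated replicates 1 and 4 and each of the 5 at day 1) and 1 of which fitted the 2 groups alone.

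Of the chaperones that build the base, Psmd10, known as gankyrin, averaged 13.2 ± 3.81 CPM untreated and 19.5 ± 5.17 at day 1, a change of 0.55 ± 0.21 (edgeR adjusted p = 0.0348) that was lost in 8 of 22 alternatives. Psmd5, another such chaperone, had a log2 change of -0.01 and was not called. Psmd9 was under the filter, with 3 to 12 UMIs in untreated libraries, none in 3 day 1 libraries and at most 3 in the others, and was not tested in the main model. DESeq2 and edgeR without the filter did test it and called it lower at day 1, with log2 changes of -2.39 and -2.33 (adjusted p = 0.0163 and 0.0126) that rest on these few UMIs.

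The proportion of cap to core overlapped between all groups, and that of PA28 to core did not. Per 1000 UMIs of the 14 core genes, the 17 cap genes had 833 ± 78.7 untreated, 799.5 ± 90.0 at day 1 and 823 ± 55.4 at day 3 (SD, n = 5), and the differences between the means were smaller than these SDs. Psme1, Psme2 and Psme2b together had 246 ± 11.2 untreated, 446 ± 42.4 at day 1 and 283 ± 8.89 at day 3. The ranges of 233 to 257, 392 to 487 and 273 to 293 did not overlap, so the day 3 libraries also stood above the untreated ones on this scale. Psme3 and Psme4 together had 31.0 ± 8.22, 16.8 ± 3.87 and 28.7 ± 3.34, with the untreated and day 1 ranges of 17.8 to 39.4 and 12.5 to 22.8 overlapping.

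Psmf1 had 6.25 ± 1.07 UMIs per 1000 core UMIs untreated, 1.91 ± 0.993 at day 1 and 6.44 ± 1.03 at day 3, and its day 1 range of 1.22 to 3.55 lay under the untreated range of 4.60 to 7.27. These ratios hold within a library and do not depend on the scaling between libraries. Counts of different genes were compared with each other only in this way, between groups.

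**Figure D4:**
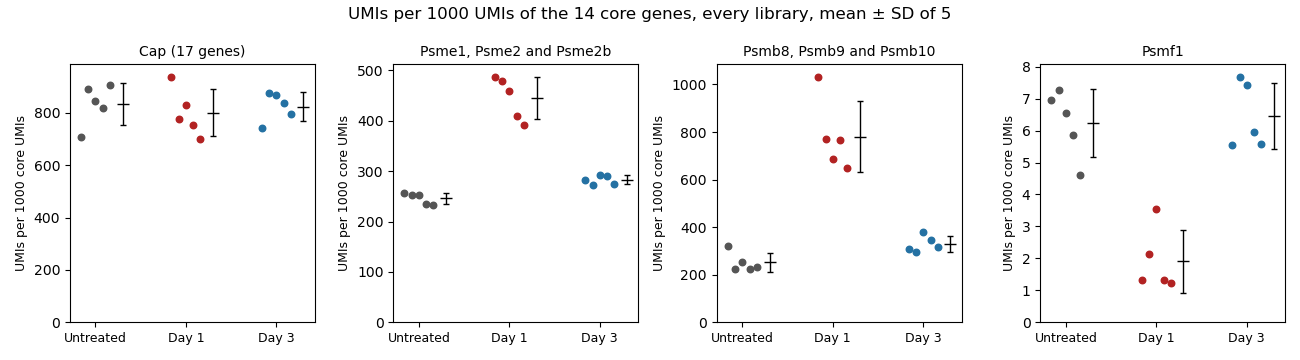
UMIs per 1000 UMIs of the 14 core genes in every library for the cap, PA28, the immunoproteasome genes and Psmf1, with the mean ± SD of 5 libraries. Cap values overlap in all groups, PA28 separates all 3 groups at 246, 446 and 283, and Psmf1 is lowest at day 1.

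The 3 immunoproteasome genes, left out of the set, moved further than the subunits that they replace. Psmb8, Psmb9 and Psmb10 all rose at day 1, by 2.42, 2.12 and 2.03 on the log2 scale. UMIs of Psmb8 per UMI of Psmb5 were 2.18 ± 0.345 untreated, 11.1 ± 3.98 at day 1 and 4.33 ± 0.400 at day 3, with no overlap among the 3 groups. UMIs of Psmb9 per UMI of Psmb6 were 0.387 ± 0.118, 0.823 ± 0.204 and 0.491 ± 0.0390, and the day 1 range of 0.634 to 1.14 lay above the others. Exons of Psmb9 overlap Tap1 on the other strand, so some of its reads could belong to that gene. UMIs of Psmb10 per UMI of Psmb7 were 2.85 ± 1.44, 8.02 ± 2.26 and 4.09 ± 0.519, again with day 1 apart, from 5.97.

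At day 3 most of the set was near its untreated level. None of the 44 genes was called higher than in untreated cells and 4 were called lower, where 9.20% of all genes were called higher and 9.25% lower, and the median of the 44 was -0.01, as over all genes. At an unadjusted p under 0.05 there were 2 higher and 8 lower, and the share of all genes at that threshold was not counted. DESeq2 called none of the set higher and 5 lower, beside 1098 (8.78%) and 1102 of all genes. The untreated libraries serve in both comparisons with untreated, so these are not independent of each other. Of the 26 genes higher at day 1, 25 had day 3 values that overlapped the untreated values, and Psmd2 did not, at 64.9 to 84.8 CPM beside 34.9 to 61.4. Over the 44 genes, this was the 1 gene whose day 3 libraries all lay above the untreated ones, beside 7.78% of all genes, and 7 lay below, beside 7.25%.

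The 4 genes called lower at day 3 were 3 alpha ring genes and Psmd1. Psma3 was at 15.1 CPM or more in every untreated library and at 14.3, 11.6, 9.08, 8.08 and 10.3 at day 3, without overlap, with a change of -0.66 ± 0.18 (edgeR adjusted p = 0.0143) that kept its call in all 22 alternatives. Psma4 averaged 76.9 ± 16.3 CPM untreated and 43.3 ± 4.47 at day 3, a change of -0.84 ± 0.27 (edgeR adjusted p = 0.0333). Its call was lost in 8 of 22 alternatives, among them the replicate number as a block, with -0.83 (edgeR adjusted p = 0.06). Psma1 averaged 67.4 ± 5.91 and 45.9 ± 7.66 CPM, a change of -0.55 ± 0.17 (edgeR adjusted p = 0.0231), and did not overlap. The Psma1 call was lost in 4 of 22 alternatives.

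Psmd1 averaged 128 ± 30.9 CPM untreated and 90.2 ± 3.53 at day 3, a change of -0.52 ± 0.16 (edgeR adjusted p = 0.0244) with overlap through untreated replicate 1, at 75.7. The Psmd1 call was lost in 5 of 22 alternatives. The number called lower was sensitive to single libraries. It was 7 without day 1 replicate 1, 2 without untreated replicate 2 or day 3 replicate 1, 4 or 5, and 1 without untreated replicate 3 or 4. The number over all genes moved the same way. It was 944 in the main fit, 1247 without day 1 replicate 1, and 649 and 684 without untreated replicates 3 and 4. The catalytic genes Psmb5, Psmb6 and Psmb7 had log2 changes of -0.36, -0.01 and -0.49 and were not called, with edgeR adjusted p-values of 0.164, 0.986 and 0.0534. Psmb7 was called lower in 6 of 22 alternatives, among them DESeq2, plain totals and the fit of the 2 groups alone. The genes Psme1, Psme2, Psme3, Psme4 and Psmf1 lay between -0.30 and 0.22 and were not called.

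Between day 1 and day 3, 25 of the 44 genes were lower at day 3 and Psmf1 alone was higher, where 16.6% of all genes were called lower and 16.1% higher. The median of the 44 was -0.53, beside 0.01 over all genes. All day 3 libraries lay below all day 1 libraries for 17 of the 44, beside 10.1% of all genes, and above them for 1 (Psmf1), beside 10.5%. The lower genes were 11 of 14 in the core, 11 of 17 in the cap, 1 of 6 chaperones (Psmg4) and 2 of 5 activators. With plain totals 18 were lower and 1 higher, beside 1203 and 2305 of all genes.

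Psme1 was lower at day 3 than at day 1 by -1.41 ± 0.14 on the log2 scale, with an edgeR adjusted p of 2.0e-07 and no overlap. Psmb6 and Psmb3 each differed by -1.04 (edgeR adjusted p = 1.7e-06 and 5.3e-05), Psmb7 by -0.97 (2.2e-04), Psmd11 by -0.91 (0.00269), Psmg4 by -0.88 (0.00106) and Psmd4 by -0.85 (1.4e-04). Smaller differences were called for Psme2, Psmc2 and Psmd3, at -0.79 each, for Psmc5 at -0.74, Psma2 at -0.73, Psmd1 at -0.67 and Psma7 at -0.65. Without replicate 1 of day 1 the Psmd3 difference was -0.53. Psmf1 was higher at day 3 by 1.04 ± 0.24 (edgeR adjusted p = 0.00242) without overlap.

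Psmb5, which was not called at day 1 against untreated, was lower at day 3 than at day 1 by -0.56 ± 0.18 (edgeR adjusted p = 0.0198), a call lost in 5 of 22 alternatives. Psme3 and Psme4 differed by 0.14 and 0.09 and were not called. Summed core CPM was 1957 ± 139 untreated, 2939 ± 421 at day 1 and 1932 ± 143 at day 3, and summed cap CPM was 1623 ± 85.5, 2322 ± 157 and 1585 ± 52.3. Summed CPM of Psme1, Psme2 and Psme2b was 482 ± 48.7, 1298 ± 126 and 546 ± 40.9. The ratios of day 1 to untreated were 1.50, 1.43 and 2.69 for core, cap and PA28, and 1.25, 1.19 and 2.24 with plain totals.

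Genes around the proteasome were taken from a list of 30 ubiquitin and proteasome factors, of which 27 were in the table and 25 tested. At day 1, 7 of the 25 were higher and 4 lower, where 23.1% of all genes were called in each direction, and the median was 0.04. With plain totals 3 were higher and 9 lower, where 1498 of all genes (14.7%) were called higher and 3652 lower. Among the 7 higher genes of the list were Pomp, the maturation factor of the core, Adrm1, a ubiquitin receptor of the cap, the unfolding ATPase Vcp, Zfand2a, Bag6 and the ubiquitin gene Ubb. The 4 lower genes were the shuttle factor Ubqln2, Ngly1, Ipo9 and Ube3c. Nfe2l1, named outside the rule because it encodes a transcription factor for proteasome genes, averaged 123 ± 12.7 CPM untreated and 120.2 ± 18.1 at day 1. Its change of -0.05 ± 0.14 was not called (edgeR adjusted p = 0.798). This is a level of RNA, and the activity of the protein was not measured.

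Ubb measured 2476 to 3476 CPM untreated, 5806 to 7608 at day 1 and 4285 to 4657 at day 3, with no overlap among groups. Its change at day 1 was 1.06 ± 0.14 (edgeR adjusted p = 2.4e-06) and at day 3 0.53 ± 0.14 (0.00985). Ubb was thus called higher at both times.

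Zfand2a, a stress-induced factor that binds the proteasome, measured 19.6 to 32.8 CPM untreated and 58.4 to 121 at day 1, a change of 1.52 ± 0.22 (edgeR adjusted p = 9.8e-06). Ubqln2 measured 61.8 to 79.3 and 38.1 to 49.6 CPM, a change of -0.63 ± 0.13 (edgeR adjusted p = 5.7e-04). Neither overlapped between these groups. At day 3 the list had 2 genes higher than untreated and 1 lower, beside 9.20% and 9.25% of all genes, which is no more than the background. The lower gene was Txnl1 at -0.73 ± 0.23 (edgeR adjusted p = 0.0271). With plain totals 2 were higher and 4 lower, beside 660 and 1442 of all genes. Against day 1, 2 were higher and 8 lower at day 3, beside 16.1% and 16.6% of all genes. Among the 8 lower ones were Adrm1 at -0.72 and Pomp at -0.63. With plain totals 2 were higher and 5 lower than at day 1, beside 2305 and 1203 of all genes.

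The authors' deposited table of comparisons listed 27 of the 45 genes higher and 3 lower at day 1 at an adjusted p under 0.05, none higher and 5 lower at day 3, and 1 higher and 30 lower at day 3 against day 1. All 28, 4 and 26 genes called here in those comparisons were called there in the same direction. That table rests on the same libraries, so it is no independent check. DESeq2 run here on the same counts gave the same numbers for the set. Over all genes it called 2746 (21.5%) higher and 2480 lower at day 1, and 1098 and 1102 at day 3. Between the times it called 1665 higher and 1952 lower at day 3.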

How the data were processed

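Raw UMI counts per gene were taken as the authors deposited them, 12763 genes in 15 libraries. Per the submitters' processing notes, bcl2fastq, cutadapt, STAR 2.5.2b, HTSeq and DESeq2 were used with mm10. The deposited normalized columns hold a signal made by dividing counts by each library's size factor, and the deposited regularized values and the authors' fold changes are log2 values, per the file headers. Their p-value columns, also deposited by the authors, were used only for the comparison named as theirs.

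Genes were filtered with filterByExpr, which left 10207, and fitted with edgeR 4.0.16 (R 4.3.3, limma 3.58.1): TMM scaling, 1 quasi-likelihood model of all 15 libraries with group as factor, Benjamini-Hochberg adjustment over all genes and a threshold of 0.05. The biological coefficient of variation was 20.1%. The scripts were tested on simulated data. The alternatives were DESeq2 1.42.0, RLE or plain total scaling, no filter, at least 10 counts in 5 libraries, only the 2 groups compared, the replicate number as a block, and leaving out each library. Genes were named by a rule: the catalytic subunits, the activators and Psmf1, then per comparison the 2 called genes of smallest p in each class and the 2 largest rises and falls, and 4 called genes of the pathway list, of which 1 is not reported here. The members, lists and rule were chosen with earlier results of these data known. Gene coordinates and exon overlaps are from GENCODE vM21, promoters from RefSeq on GRCm38.p6. Depth limits genes with few UMIs, such as Psmf1 and Psmd9. Reads were not examined, so mapping and UMI errors could not be checked. Python 3.11.15 with numpy 2.4.6, pandas 2.3.3, matplotlib 3.10.9 and Biopython 1.88 was used for summaries.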

Additional observations from a re-analysis of the deposited data

Results flagged for a closer look

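Among 132 sets of 5 values (each of the 44 tested genes in each group), 11 held 1 library far from the other 4, by a gap above the 95% limit of Dixon's test, where chance gives about 1 in 20. In 4 of them the library was replicate 1 of day 1: Psme2b at 162 CPM (others 21.3 to 26.2), Psmd3 at 317 (130.0 to 159), Psmg4 at 135 (93.2 to 103) and Psmg3 at 26.8 (22.2 to 23.3). In untreated replicate 1, Psmb1 was at 426 CPM (others 329.8 to 342) and Psmd2 at 34.9 (56.1 to 61.4), and in untreated replicate 5 Psmc1 was at 114 (81.7 to 88.0). Psmd8 was at 177 CPM in day 1 replicate 5 (others 225 to 241). At day 3, Psmg2 was at 41.6 CPM in replicate 1 (26.4 to 30.1), Psmc3ip at 1.08 in replicate 2 (3.09 to 3.62) and Psmd14 at 38.8 in replicate 3 (50.7 to 55.2). No cause of these values was tested.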

How the results depend on the processing

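The day 1 rise of the set held in direction under every alternative run, with 13 genes called higher with plain library totals and 22 to 28 in the others. The number lower at day 1 was 3 with DESeq2, plain totals or no filter, 1 in the fit of the 2 groups alone and 1 to 2 when single libraries were left out. At day 3 against untreated, the fit of the 2 groups alone called 1 gene higher and 7 lower, plain totals 7 lower, and leaving out single libraries 0 to 2 higher and 1 to 7 lower. Over all genes, 944 were lower in the main fit, 1243 in the fit of the 2 groups alone and 1442 with plain totals. Leaving out single libraries, 649 to 1247 of all genes were lower. Between the times, 18 to 31 genes were lower. Of the genes named by the rule and called, 13 of 18 at day 1, 1 of 4 at day 3 and 15 of 16 between the times were called in all 22 alternatives, and none of them changed sign. With plain totals, summed CPM was 2129.8 for the untreated core, 1768 and 2097 for the untreated and day 1 cap, and 206 for the day 1 chaperones.

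Uncalled changes near 0 changed sign. At day 1, Psmb5 was at -0.07 with plain totals and Psmd6 at -0.20 to 0.13 without single libraries. At day 3 against untreated, Psmb6 was at 0.01 with no filter, 0.02 with the 2 groups alone and -0.04 to 0.04 without single libraries. With plain totals Psme2 was at -0.01, Psme3 at -0.11 and Psmf1 at -0.09. Without single libraries Psme3 was at -0.09 to 0.14 and Psmf1 at -0.06 to 0.10. Between the times, Psme4 was at -0.004 to 0.18 and Psmd6 at -0.14 to 0.18 without single libraries. The cause was not tested.

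The labels do not say whether replicate numbers pair the samples. Between same-numbered libraries, correlations of the deviations from the group means ran from -0.352 to 0.166. Such low values cannot exclude a shared batch or day. With the replicate number as a block, 23 genes were higher and 2 lower at day 1, 0 and 3 at day 3, and 1 and 24 between the times. Psma2, Psmd10 and Psmd13 lost their calls at day 1, Psma4 at day 3 and Psmc4 between the times. Depth limits genes with few UMIs per library, such as Psmf1, Psmd9 and Psmc3ip.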
